A study of Mus musculus with 16 samples.

Results

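The globin genes and 2 marker genes of the red cell lineage were followed through RNA sequencing of mouse embryo dorsal root ganglia from the lumbar level, which hold the cell bodies of sensory neurons. The set was fixed by name as the embryonic globins Hbb-y, Hbb-bh1 and Hba-x, the adult globins Hba-a1, Hba-a2, Hbb-bt and Hbb-bs, the heme enzyme gene Alas2 and the membrane transporter gene Slc4a1. All 9 names had a row among the 24421 genes of the count table, 6 of them held reads, and those 6 passed the low-count filter of the tests.

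Ganglia came from C57BL/6 mouse embryos at embryonic day 13.5, and polyadenylated RNA was sequenced in 16 libraries, 4 per group. KO_alpha3 lacks importin α3, a nuclear import adaptor encoded by Kpna4. KO_beta lacks the 3′ untranslated region of importin β1, the import carrier encoded by Kpnb1. WT_beta and WT_alpha3 are wild types labelled with these lines, and the design text says that all 8 served both projects because of a gender effect. Each library is called by its group and its title number. No driver or cell type restriction of either deletion is labelled, every group has the same labelled stage and strain, and no embryo, litter or finer stage is given. Whether each library is a separate embryo is not labelled, and p-values then measure only the spread between these samples, which may be technical.

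Red cells of the mouse embryo come in waves. Primitive red cells from the yolk sac circulate first and make the ζ chain of Hba-x with the β-type chains of Hbb-bh1 and Hbb-y, and as they mature Hbb-bh1 RNA gives way to Hbb-y RNA. Definitive red cells from the fetal liver follow and make the adult chains of Hba-a1, Hba-a2, Hbb-bs and Hbb-bt. Alas2 encodes the first enzyme of heme synthesis in red cells, and Slc4a1 encodes band 3, the anion exchanger of their membrane. Red cells are the main known source of these RNAs, and blood enters a dissected ganglion with its vessels.

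Library totals lay between 19682595 and 26873361 counts. Kpna4 was at 0.619 to 1.13 counts per 1000000 (CPM) in KO_alpha3, 73.9 to 75.8 CPM in KO_beta and 69.5 to 81.3 CPM in the 8 wild types. A count over the whole Kpnb1 gene does not check a deletion of its 3′ end. The sensory neuron genes Tubb3 and Nefm were at 1838 CPM or more and at 1649 CPM or more in every library, as in a ganglion. Reads of Y-linked genes were present in all KO_beta and WT_alpha3 libraries and in KO_alpha3 50 and 75, and were under 10 CPM in WT_beta and in KO_alpha3 42 and 81. WT_alpha3 79 and WT_beta 399 stood apart in red cell genes, as described below, so fold changes and list medians are also given without them.

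The β-type members lie together on chromosome 7 (build GRCm38, the same assembly as mm10), with Hbb-y at 103851749 to 103853216, Hbb-bh1 at 103841637 to 103843164, Hbb-bs at 103826534 to 103828096 and Hbb-bt at 103812524 to 103813996, all on the minus strand. The α-type members lie on chromosome 11 on the plus strand, with Hba-x at 32276400 to 32278116, Hba-a1 at 32283511 to 32284465 and Hba-a2 at 32296489 to 32297298. Each of these 7 globins has 3 exons. Slc4a1 is on the same chromosome 11 at 102348824 to 102366203, and Alas2 is on chromosome X at 150547375 to 150570638.

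The adult globins could not be measured as a set. Hba-a1, Hba-a2 and Hbb-bt were listed at 0 in all 16 libraries, and Hbb-bs was the single adult globin with reads. Each adult gene has a nearly identical neighbour. The coding sequences of Hbb-bs and Hbb-bt differ at 1 of 441 bases, and those of Hba-a1 and Hba-a2 at 1 of 426 bases. The following 30 coding bases, read from the reference transcripts, end at the single base that differs, in capitals.

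Hbb-bs, coding bases 388 to 417: gccttccagaaggtggtggctggagtggcC

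Hbb-bt, coding bases 388 to 417: gccttccagaaggtggtggctggagtggcT

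Hba-a1, coding bases 352 to 381: ttcacccccgcggtgcatgcctctctggaC

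Hba-a2, coding bases 352 to 381: ttcacccccgcggtgcatgcctctctggaT

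A read that falls within a stretch shared by 2 genes maps to both. In runs of 50 bases, 67.5% of the Hba-a1 transcript and 86.9% of the Hba-a2 transcript had an exact copy in the other gene. The same share was 58.3% for Hbb-bt and 65.8% for Hbb-bs. Each adult transcript still held runs found nowhere else among the members, from 66 in Hba-a2 to 273 in Hbb-bt. Neither the read length nor the rule for reads with several matches is given in the sources used here, and why the rows are at 0 was not tested. Whether the Hbb-bs row holds all reads of its own gene, or reads of Hbb-bt as well, is not known, and no statement on the absence of adult globin RNA can be made. The older row names Hbb-b1 and Hbb-b2 also stood in the table, with at most 0.0515 CPM and at 0.

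The embryonic pair is different in this respect. Hbb-y and Hbb-bh1 differ at 104 of 441 coding bases, and no run of 50 bases of Hbb-y, Hbb-bh1 or Hba-x had a copy in another member. Of the windows of 30 coding bases compared, the one with the most differences lies in the first exon. It has 14, in capitals.

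Hbb-bh1, coding bases 28 to 57: GcAGCTatcaCAAgcAtCtggGAtaaAgtG

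Hbb-y, coding bases 28 to 57: AcCCTCatcaATGgcCtGtggAGtaaGgtC

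Embryonic globins made up most of the members' reads. Per kilobase of transcript, Hbb-y had the highest level of the 6 counted members in 16 of 16 libraries, with a median of 971 CPM per kb. Hba-x followed at a median of 187 CPM per kb. Alas2 had 26.8, Slc4a1 18.5, Hbb-bh1 13.3 and Hbb-bs 3.52 CPM per kb at the median, and the ranges of these 4 genes over libraries overlapped. The ranges of Hbb-y, 416 to 8901 CPM per kb, and Hba-x, 60.8 to 3911 CPM per kb, overlapped across libraries, although Hbb-y was the higher gene within each. The 6 counted members together took between 0.0376% of the counts, in WT_beta 410, and 1.05%, in WT_alpha3 79. Any reads of Hba-a1, Hba-a2 and Hbb-bt, whose rows are at 0, are not in these shares. In bulk tissue, fewer red cells and less RNA per cell cannot be told apart.

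Hbb-y, the main embryonic β chain at this stage, had 1131, 479, 419 and 1619 CPM in KO_alpha3 42, 50, 75 and 81. The KO_beta libraries 398, 402, 406 and 411 had 2346, 1339, 631 and 288 CPM. WT_beta 399, 401, 410 and 415 had 1063, 598, 264 and 564 CPM, and WT_alpha3 45, 54, 55 and 79 had 3525, 330, 264 and 5634 CPM. WT_alpha3 held the 2 highest libraries of the series and, level with WT_beta 410, the lowest, a span of 21.3-fold within 1 group, and the groups overlapped. The mean was 912 ± 571 CPM in KO_alpha3, 1151 ± 909 CPM in KO_beta, 622 ± 330 CPM in WT_beta and 2439 ± 2618 CPM in WT_alpha3 (SD, n = 4 each).

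Hba-x, the embryonic α-type chain, had 358, 166, 119 and 887 CPM in KO_alpha3, in the same library order. In KO_beta it had 535, 268, 133 and 52.4 CPM. Wild types had 226, 124, 48.7 and 90.4 CPM in WT_beta and 1186, 97.6, 78 and 3133 CPM in WT_alpha3. WT_alpha3 79 and 45 were again the highest pair, and the groups overlapped.

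Hbb-bh1, the earlier embryonic β chain, had 32.9, 4.28, 6.41 and 124 CPM in KO_alpha3. KO_beta had 35.1, 16.4, 7.24 and 2.25 CPM. Wild types had 29.5, 9.07, 2.22 and 5.7 CPM in WT_beta and 127, 2.71, 2.52 and 329 CPM in WT_alpha3. It had the widest span of the 6 counted members, 148-fold over the 16 libraries, against 21.4-fold for Hbb-y and 64.3-fold for Hba-x. Both WT_alpha3 45 and 79 and both KO_alpha3 42 and 81 stood above the other 2 libraries of their group in all 3 embryonic globins.

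Hbb-bs, the adult β chain that was counted, was low and followed another order. It had 8, 107, 40 and 8 reads in KO_alpha3 42, 50, 75 and 81, and 236, 102, 45 and 14 reads in KO_beta. Wild types had 181, 61, 16 and 23 reads in WT_beta and 51, 58, 82 and 277 reads in WT_alpha3. A count of 8 has an exact 95% Poisson interval of 3.45 to 15.8 reads and a count of 107 one of 87.7 to 129, for counting error only. KO_alpha3 42 and 81, the higher pair of their group in embryonic globins, were thus the lowest pair of the series in Hbb-bs, at 0.32 and 0.334 CPM against 4.77 and 1.77 CPM in KO_alpha3 50 and 75.

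Alas2 had 25.3, 80.6, 39.9 and 43.1 CPM in KO_alpha3. KO_beta had 173, 86.4, 49.9 and 20.6 CPM. In wild types it was at 175, 40, 19.3 and 53.8 CPM in WT_beta and 96.7, 55.2, 59.2 and 297 CPM in WT_alpha3. The KO_alpha3 values lay within the range of the wild types, and the top 3 libraries were WT_alpha3 79, WT_beta 399 and KO_beta 398.

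Slc4a1 had 36.7, 93.4, 95 and 113 CPM in KO_alpha3. KO_beta had 267, 95.7, 44.9 and 27.8 CPM. In wild types it was at 623, 54.7, 35.7 and 74.5 CPM in WT_beta and 162, 73.8, 74.6 and 784 CPM in WT_alpha3. WT_alpha3 79 and WT_beta 399 stood far above the rest of their groups. In WT_beta 399, Slc4a1 made up 29.3% of the members' reads and Hbb-y 50.1%, whereas in the other 3 WT_beta libraries Slc4a1 made up 6.6% to 9.64%.

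**Figure D1:**
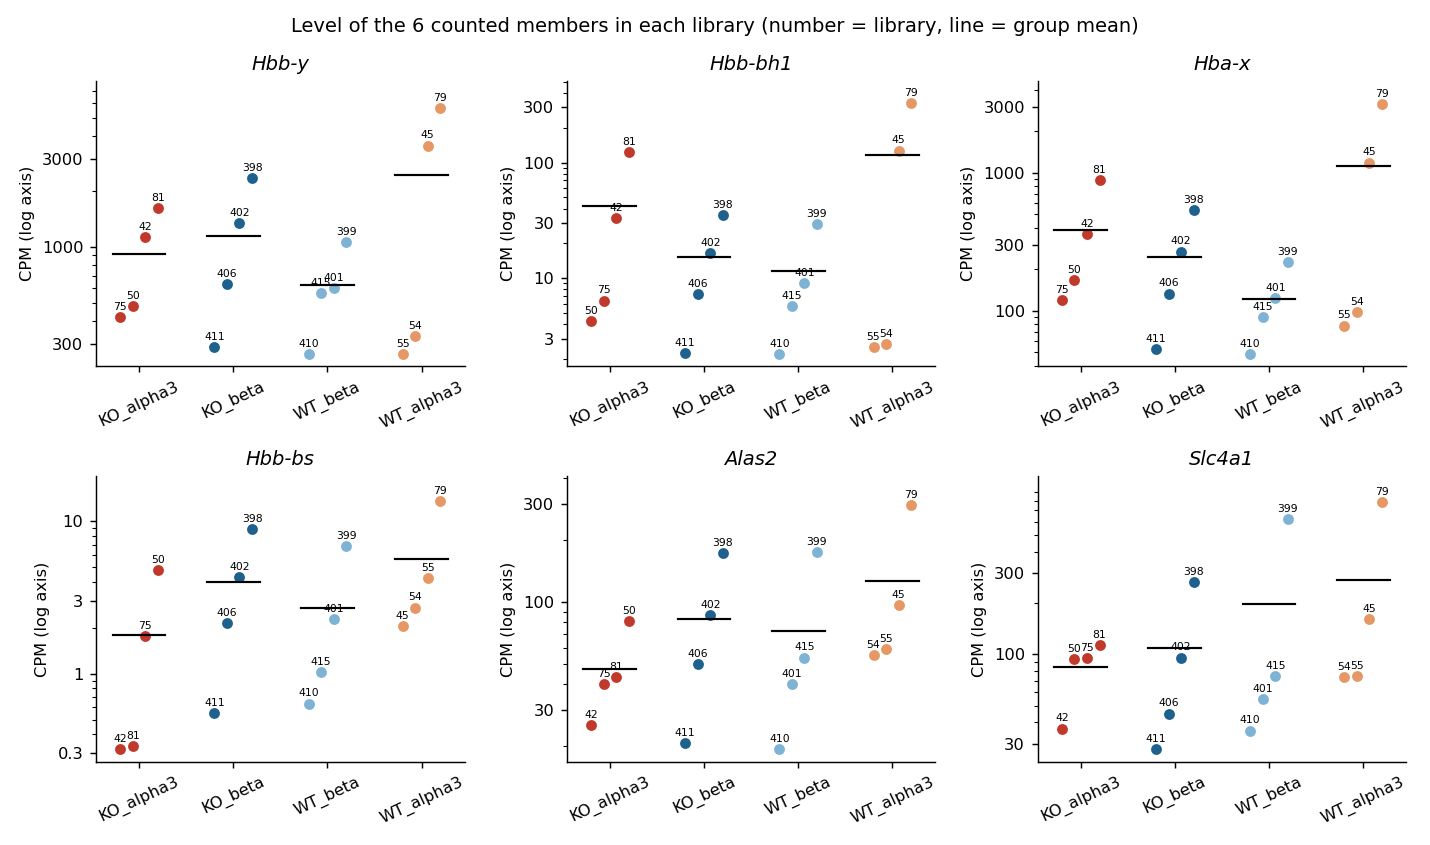
Level of the 6 counted members in each library, in CPM on a log axis, by group; each point is 1 library with its number and the line is the arithmetic group mean (n = 4 libraries per group). WT_alpha3 holds the highest library of all 6 genes, number 79, and groups overlap in each panel.

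Across the 16 libraries the embryonic globins followed each other most closely, and Hbb-bs followed them least. Levels of Hbb-y, Hbb-bh1 and Hba-x, as log2(CPM + 1), correlated with each other at Pearson r of 0.96 to 0.97. Alas2 correlated at 0.93 with Slc4a1 and at 0.90 with Hbb-bs. Hbb-bs correlated with Slc4a1 at 0.78, but with Hbb-y at 0.43, with Hba-x at 0.41 and with Hbb-bh1 at 0.30. Alas2 and Slc4a1 lay in between, at 0.60 to 0.71 with the embryonic globins. These are descriptions over 16 libraries that share their scaling, and WT_alpha3 79 is the highest library of every gene.

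The promoters of the members were searched for short sequence features they have in common. The patterns searched are known factor sites and promoter elements, so their shares are a description of these genes. Among the members are Hba-a1, Hba-a2 and Hbb-bt, whose rows are at 0, so the search bears on the genes and not on their levels here. RefSeq promoter sequences (GRCm38.p6, 250 bases before to 50 after the gene start) were matched for 7 of 9 members. Their gene starts are not always the ends of the gene models given above: RefSeq starts Hbb-y at 103853207, Hbb-bs at 103827928, Hba-x at 32276600 and Alas2 at 150547417. Short letter patterns were searched on both strands. CACCC is the core of sites for KLF-type factors such as Klf1, and GATAA is the core of sites for GATA factors. CCAAT and TATAA are common promoter elements near the start of transcription, and CATAA is a variant of the second of these. The TATA, CATA and GATA patterns differ only in their first letter, so their hits cannot overlap on the same strand. On opposite strands, GATAA and CATAA in Hbb-y shared the base 158 upstream of the start. No CACCC hit in a member overlapped another pattern. CACCC occurred in 7 of 7 member promoters and in 57.5% of 32851 promoters. GATAA occurred in 7 of 7 and in 25.4% of all, and both together in 7 of 7 and in 12.6% of all.

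CCAAT was found in the 5 promoters of Hbb-y, Hbb-bs, Hbb-bt, Hba-a1 and Hba-a2 and in 37.4% of all. TATAA was found in 6 of 7 and in 24.9% of all, with its first base 27 to 30 bases upstream of the start in 5 globins and 207 bases upstream in Alas2. Hbb-y was the exception, with CATAA in place of it, first base 29 bases upstream of the start, a pattern found in 28% of all promoters. The windows below are 30 bases around the CACCC nearest upstream of the RefSeq start of an embryonic β, an embryonic α, an adult β and a heme gene, with every CACCC in capitals. In Alas2 the capitals are 3 adjoining copies of the reverse complement, GGGTG. The windows of Hbb-bs, Hba-x and Alas2 lie upstream of the RefSeq start but within the wider gene models given above. A match is a description of letters, not a binding site.

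Hbb-y, chr7:103853301-103853330, minus strand: atgacctggctcCACCCatgaggaccacgg

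Hba-x, chr11:32276493-32276522, plus strand: gataacaggctcCACCCtgcaagccccctc

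Hbb-bs, chr7:103828001-103828030, minus strand: tccgtagagccaCACCCtggtaagggccaa

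Alas2, chrX:150547375-150547404, plus strand: ggGGGTGGGGTGGGGTGggcggggctgagc

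The Hba-a1 and Hba-a2 promoters, whose genes were listed at 0, shared an identical run of 297 of their 300 bases. The member promoters are thus not all separate cases.

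Loss of importin α3 was compared with the 8 wild types, the comparison the design text sets. The 6 counted members had lower estimates in KO_alpha3, and 0 of them passed edgeR's quasi-likelihood test at an adjusted p of 0.05 over 15641 genes, of which 0.00639% were called. None of the 6 had an unadjusted p under 0.05 in edgeR or DESeq2, against 10.8% and 12.3% of all genes, and DESeq2 also called 0 of 6, against 0.818% of all genes. Without KO_alpha3 50, edgeR called 124 genes in place of 1, and still 0 members. The estimates were -0.75 ± 0.87 for Hbb-y, -0.60 ± 1.33 for Hbb-bh1 and -0.70 ± 1.10 for Hba-x (log2 fold change ± SE). Hbb-bs had -1.21 ± 0.90, Alas2 -1.08 ± 0.67 and Slc4a1 -1.48 ± 0.89, and the smallest adjusted p of edgeR was 0.579, for Slc4a1.

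The sign of 3 of these 6 estimates changed without WT_alpha3 79 and WT_beta 399. The median over the 6 members was -0.91, against -0.01 over all genes, and it was 0.05 without these 2 libraries, when 3 of 6 estimates were negative. That alternative was chosen after the data were seen. Slc4a1 then had 0.10, Hba-x 0.51 and Hbb-bh1 0.76 on the log2 scale, while Hbb-y, Hbb-bs and Alas2 stayed below 0. With any single library left out, Hbb-bs ran from -2.37 to -0.67, Alas2 from -1.46 to -0.60 and Hbb-y from -1.19 to -0.04.

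For the importin β1 3′ deletion against the same 8 wild types, 0 of 6 members were called by edgeR, beside 0% of all genes, and DESeq2 called 0 members and 0.00639% of all genes. At an unadjusted p under 0.05, edgeR had 0 members and 2.23% of all genes, and DESeq2 0 members and 3.16% of all genes. Hbb-y had -0.41 ± 0.85, Hbb-bh1 -2.05 ± 1.45, Hba-x -1.33 ± 1.1, Hbb-bs -0.06 ± 0.84, Alas2 -0.27 ± 0.65 and Slc4a1 -1.11 ± 0.87 (log2 fold change ± SE). Signs changed with the wild types used. Against WT_beta alone Hbb-y had 0.89, Hba-x 1.01 and Hbb-bh1 0.39, a comparison in which genotype and Y-linked reads cannot be told apart. The median over the 6 members was -0.76 with all libraries and 0.37 without WT_alpha3 79 and WT_beta 399. Both knockout comparisons share the 8 wild types, so the like signs in them are not 2 independent observations.

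The 2 sets of wild types were compared with each other. In WT_beta against WT_alpha3, 0 of 6 members were called by edgeR, against 0.0192% of all genes. All 4 WT_alpha3 libraries had 105 CPM or more of Y-linked genes and all 4 WT_beta libraries under 10 CPM, so line and sex cannot be told apart here. The 3 embryonic globins had the lowest estimates and an unadjusted p under 0.05, which 5.27% of all genes had. Hba-x had -3.20 ± 1.10 (adjusted p 0.823, edgeR), Hbb-bh1 -3.30 ± 1.46 (adjusted p 0.929, edgeR) and Hbb-y -1.97 ± 0.90 (adjusted p 0.940, edgeR) on the log2 scale. Alas2 had -0.82 ± 0.74, Hbb-bs -1.06 ± 0.98 and Slc4a1 -0.47 ± 0.98. DESeq2 called 0 members, against 0.205% of all genes, and had 3 at an unadjusted p under 0.05, against 5.79%. Without WT_alpha3 79 and WT_beta 399, 0 of 6 members had an unadjusted p under 0.05 in edgeR, the median over the 6 was -1.35 in place of -1.52, and Hba-x had -2.38, Hbb-bh1 -2.97 and Hbb-y -1.54. Without WT_alpha3 79 alone these 3 were at -1.90, -1.94 and -1.15, and without WT_beta 399 alone at -3.68, -4.34 and -2.36.

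The difference between the 2 knockout effects, each against its own wild types, was called for 0 of 6 members and for 0.00639% of genes by edgeR, with 0 members at an unadjusted p under 0.05 in edgeR and 1 in DESeq2, beside 1.22% and 1.67% of all genes. DESeq2 also called 0 members and 0.0384% of genes. Without WT_alpha3 79 and WT_beta 399 the median over the 6 members was -1.70 in place of -2.03, with 0 called by edgeR.

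**Figure D2:**
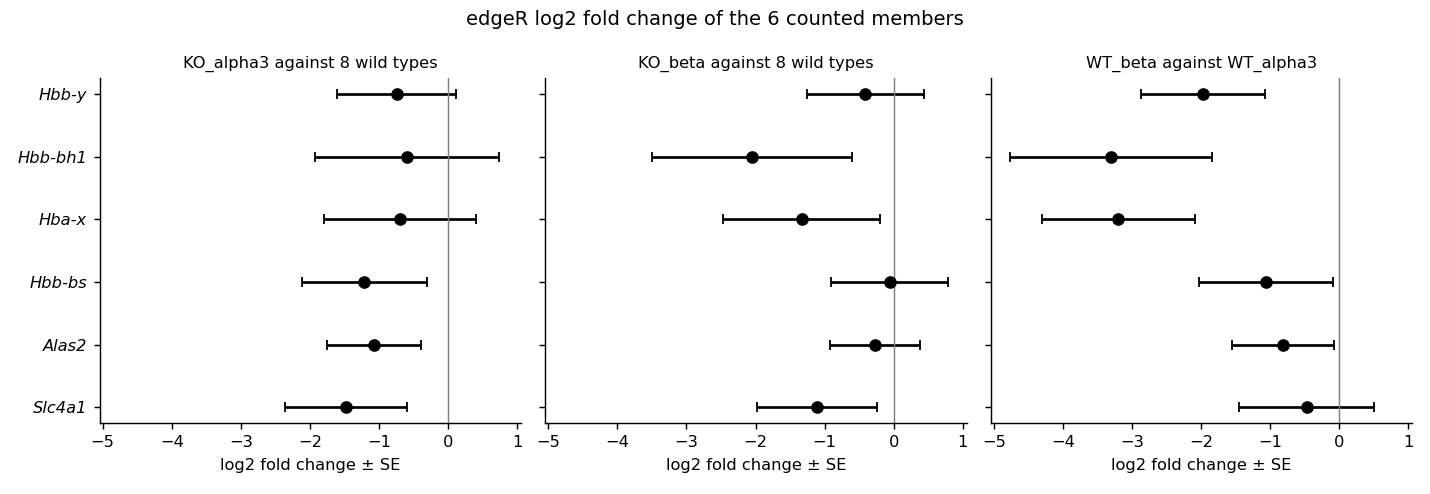
edgeR log2 fold change of the 6 counted members, with standard error as bars, for KO_alpha3 against 8 wild types, KO_beta against 8 wild types and WT_beta against WT_alpha3. Every point lies below 0 and none passed the test; the 3 embryonic globins lie lowest in the comparison of wild types.

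A ratio of 2 globins within a library does not depend on library scaling. Hbb-bh1 reads as a share of Hbb-y reads, the maturation step of primitive red cells, were 2.91%, 0.894%, 1.53% and 7.64% in KO_alpha3 42, 50, 75 and 81. KO_beta 398, 402, 406 and 411 had 1.5%, 1.23%, 1.15% and 0.78%. WT_beta 399, 401, 410 and 415 had 2.78%, 1.52%, 0.843% and 1.01%, and WT_alpha3 45, 54, 55 and 79 had 3.61%, 0.82%, 0.955% and 5.83%. The α3 line thus held the 4 highest libraries and also some of the lowest. Within KO_beta and within WT_beta the share ranked the libraries as their Hbb-y level did. KO_alpha3 42 and 81 and WT_alpha3 45 and 79 were the higher pairs of their groups in both. Whether the amount of blood in a library has a part in the share was not tested. The widest gap lay between 1.53% and 2.78%, with 11 libraries below it and 5 above. On the log2 scale the 11 ran from -6.99 to -6.03 and the 5 from -5.17 to -3.71, so the upper ones were spread out rather than gathered in a second cluster.

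Neither knockout differed from the wild types in this ratio beyond the spread. The log2 ratio averaged -5.41 ± 1.33 in KO_alpha3 and -5.90 ± 1.08 in the 8 wild types (SD), a difference of 0.49 with an exact permutation p of 0.485. In KO_beta it averaged -6.46 ± 0.39, a difference of -0.56 from the same wild types with an exact permutation p of 0.388. WT_beta had -6.18 ± 0.76 and WT_alpha3 -5.63 ± 1.39, with an exact permutation p of 0.514. All exact tests of ratios were two-sided, and 16 were run, with adjusted p of 0.517 or more for this ratio. The 2 knockout effects, each against its own line, differed by 0.50 with an exact permutation p of 0.62.

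The summed embryonic β reads per Hbb-bs read ran from 63.2 in WT_alpha3 55 to 5217 in KO_alpha3 81. KO_alpha3 42, 50, 75 and 81 had 3644, 101, 241 and 5217, and KO_beta 398, 402, 406 and 411 had 268, 314, 298 and 526. Wild types had 160, 267, 419 and 561 in WT_beta and 1789, 123, 63.2 and 438 in WT_alpha3. The mean log2 ratio was 9.64 ± 2.78 in KO_alpha3, 8.39 ± 0.41 in KO_beta and 8.20 ± 1.49 in the 8 wild types, with exact permutation p of 0.271 and 0.808. The ratios of KO_alpha3 42 and 81 rest on 8 reads of Hbb-bs each. Because it is not known which adult reads the Hbb-bs row holds, these numbers are not a globin composition.

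The ratio of the embryonic α chain to the embryonic β chain separated the lines. Hba-x reads were 31.7%, 34.6%, 28.5% and 54.8% of Hbb-y reads in KO_alpha3 and 33.7%, 29.5%, 29.5% and 55.6% in WT_alpha3. They were 22.8%, 20%, 21.1% and 18.2% in KO_beta and 21.3%, 20.8%, 18.5% and 16% in WT_beta. Each of the 8 α3-line libraries lay above each of the 8 β-line libraries. On the log2 scale the lines averaged -1.48 ± 0.39 and -2.34 ± 0.16 (α3 and β line, SD, n = 8 each), a difference of 0.87 with an exact permutation p of 1.55e-04, the smallest that 12870 splits can give. The adjusted p over 16 tests was 0.00249. This comparison of lines was added after the data were seen.

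Within each line the knockouts and their wild types overlapped in this ratio, with a log2 difference of 0.02 for KO_alpha3 from WT_alpha3 (exact permutation p 0.943) and 0.10 for KO_beta from WT_beta (exact permutation p 0.457). Among wild types alone, WT_beta and WT_alpha3 did not overlap, with a log2 difference of -0.91 and an exact permutation p of 0.0286, the smallest that 4 against 4 allows, and an adjusted p of 0.229. The lines also differ in Y-linked reads, so the ratio was compared within those classes. Libraries with Y-linked reads had 28.5% to 55.6% in the α3 line and 18.2% to 22.8% in the β line (6 and 4 libraries, exact permutation p 0.00952). Libraries without them had 31.7% to 54.8% and 16% to 21.3% (α3 and β line, 2 and 4 libraries, exact permutation p 0.133). Both p-values are the smallest these numbers allow. Because the lines did not overlap over all libraries, neither these classes nor the wild types alone could overlap. Their p-values were thus fixed by the group sizes and add no test. Leaving out any 1 library left a difference of 0.78 to 0.91. The labels give no dates or batches, so line and anything handled together with it cannot be told apart.

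The Hba-x share was also set beside the Hbb-bh1 share. WT_beta 399 had an Hbb-bh1 share of 2.78% with an Hba-x share of 21.3%, and WT_alpha3 54 had an Hbb-bh1 share of 0.82% with an Hba-x share of 29.5%. The lines differed by 0.80 in the log2 ratio of Hbb-bh1 to Hbb-y, with overlap and an exact permutation p of 0.129. Within the α3 line, the 2 libraries with the highest Hbb-bh1 shares, KO_alpha3 81 and WT_alpha3 79, were also the 2 highest in the Hba-x share.

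**Figure D3:**
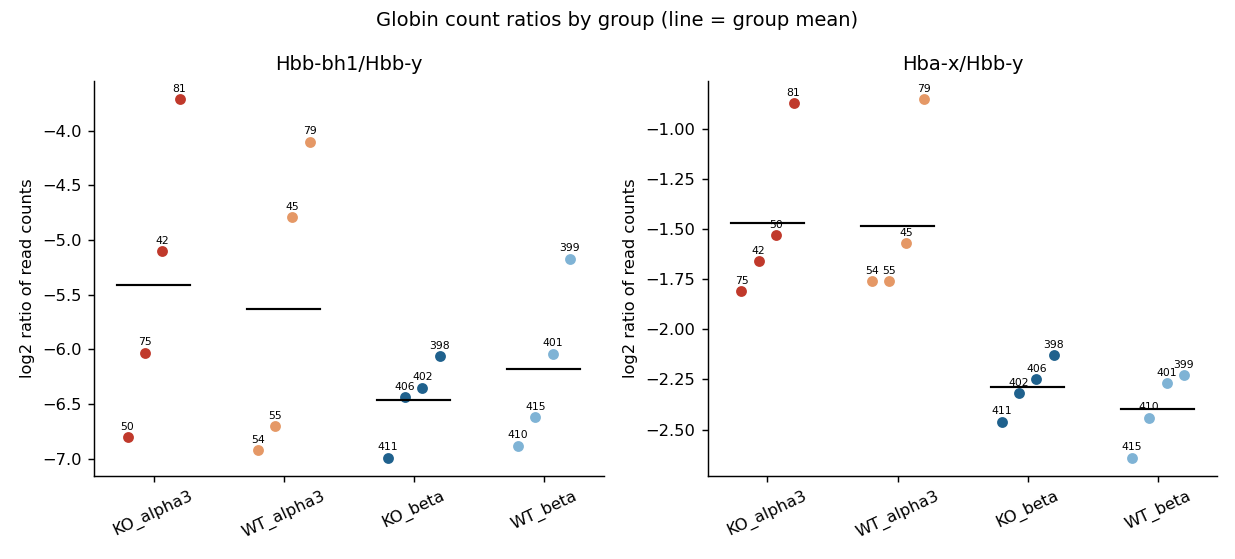
Log2 ratio of read counts for Hbb-bh1 over Hbb-y and for Hba-x over Hbb-y by group; points are libraries with their numbers and lines are group means (n = 4 per group). Groups overlap in the first ratio, and in the second all α3-line libraries lie above all β-line libraries.

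**Figure D4:**
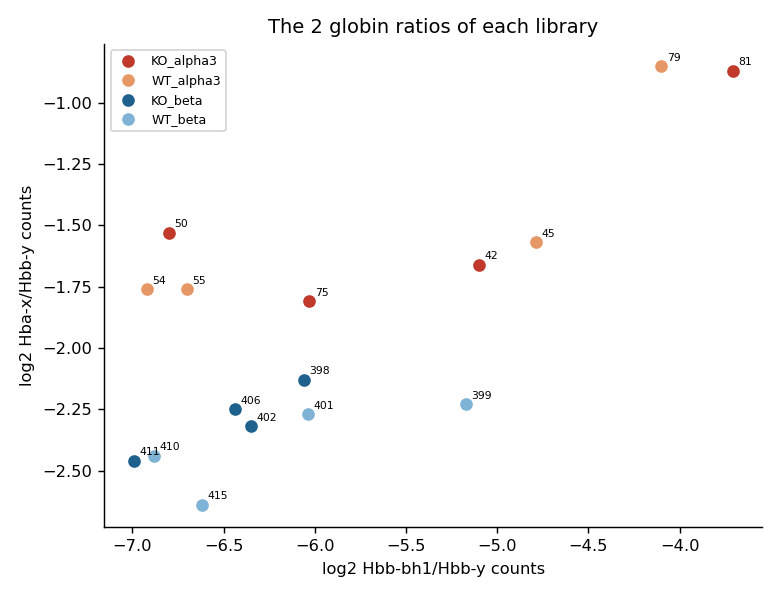
The log2 ratio of Hba-x to Hbb-y counts against that of Hbb-bh1 to Hbb-y counts, 1 point per library with its number, coloured by group. KO_alpha3 81 and WT_alpha3 79 are highest in both ratios, and at like Hbb-bh1 shares the β-line libraries lie lower than the α3-line ones.

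The Hbb-bh1 share was set against gene lists of the ganglion itself, to see whether blood and nerve tissue order the libraries alike. Each list was averaged as log2(CPM + 1). The cell cycle list, 28 genes such as Mki67 and Top2a, correlated with the log2 ratio of Hbb-bh1 to Hbb-y at Pearson r of 0.94 and Spearman rho of 0.94 over 16 libraries (permutation p 1e-05 each, the smallest that 100000 permutations give, adjusted p 4.50e-05 and 9.00e-05 over 9 relations). Without WT_alpha3 79 and KO_alpha3 81, the 2 libraries farthest from the median ratio, r was 0.96. It was 0.98 in the 8 wild types and 0.85 in the 11 libraries below the gap. The β-line library WT_beta 399, at 2.78%, was also the highest of its line in the cell cycle list, with a mean of 6.01. Its hepatocyte genes summed to 5312 CPM, the highest of the series, and their part in this value was not tested.

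The neural progenitor list, 14 genes such as Nhlh1 and Notch1, correlated with the same ratio at r of 0.87 and rho of 0.81 (permutation p 6.00e-05 and 2.60e-04, adjusted p 1.35e-04 and 7.80e-04). Without the 2 farthest libraries r was 0.75, in the 8 wild types 0.81, and below the gap 0.69. WT_beta 399 did not follow this order, with a mean of 4.38, the lowest of WT_beta, where the other 3 libraries had 4.46 to 5.13. The late sensory neuron list, 15 genes such as P2rx3, an ATP-gated channel, ran the other way. Its r was -0.93 and its rho -0.89 (permutation p 1e-05 and 2.00e-05, adjusted p 4.50e-05 and 9.00e-05), and r was -0.88, -0.91 and -0.77 in the same 3 subsets. The libraries above the gap had means of 4.79 to 6.18 in this list, and those below it 5.99 to 6.97.

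The labelled stage is the same for every library, so none of these values can be set against a measured age. Depth, RNA quality and dissection were not labelled, and their part in these relations was not tested. The cell cycle list also counts dividing red cell precursors, which the bulk data do not separate from dividing ganglion cells. The sum of Alas2 and Slc4a1 correlated with the Hbb-bh1 ratio at r of 0.53 and rho of 0.54 (permutation p 0.0339 and 0.0347, adjusted p 0.0381 and 0.052). Without the 2 farthest libraries r was 0.46, in the 8 wild types 0.86 (exact permutation p 0.00734), and below the gap 0.52.

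**Figure D5:**
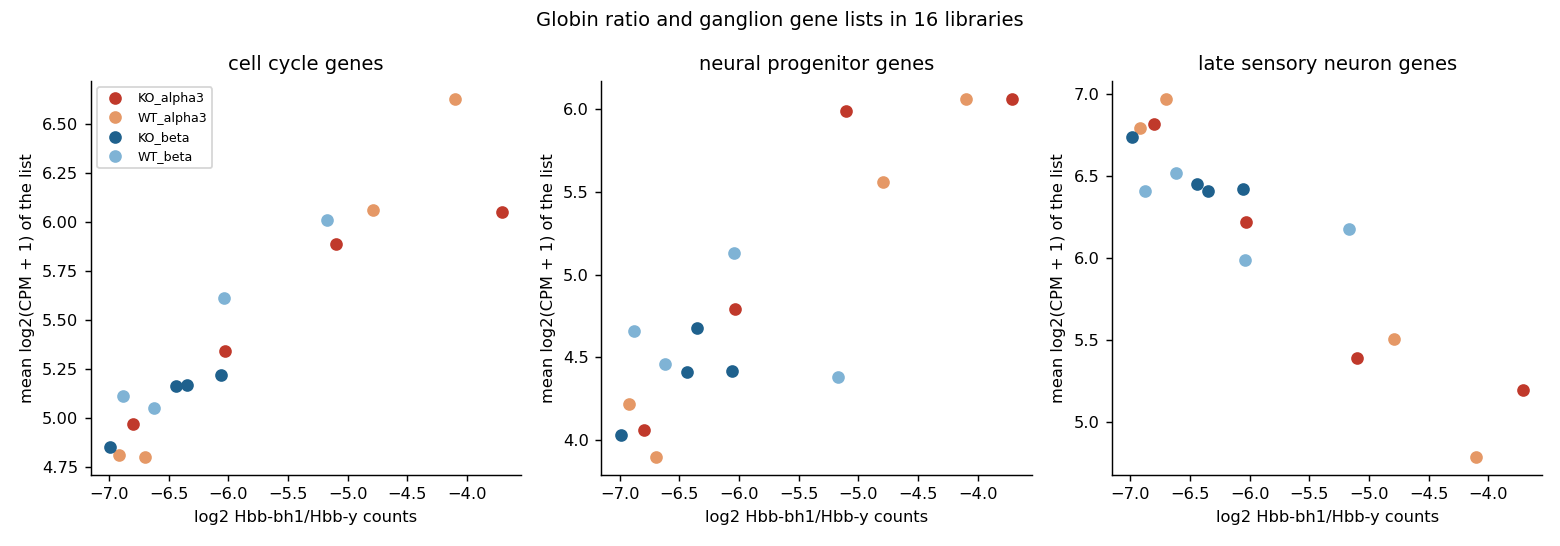
Mean log2(CPM + 1) of the cell cycle, neural progenitor and late sensory neuron lists against the log2 ratio of Hbb-bh1 to Hbb-y counts, 1 point per library, coloured by group. The first 2 lists go up with the ratio, r of 0.94 and 0.87, and the third goes down, r of -0.93.

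Hba-x per Hbb-bs read was the second early-to-late ratio. It ran from 18.5 in WT_alpha3 55 to 2655 in KO_alpha3 81, and correlated with the Hbb-bh1 share at r of 0.77 but at rho of 0.47 (permutation p 0.00133 and 0.07, adjusted p 0.00199 and 0.0788). In the 11 libraries below the gap r was 0.15, so the relation rested on the 5 above it. With the neural progenitor list this ratio had r of 0.87 and rho of 0.73, and with the late sensory neuron list r of -0.81 and rho of -0.63 (permutation p 4.00e-05, 0.00177, 3.50e-04 and 0.0104). Below the gap these were 0.47 and -0.55. With the cell cycle list r was 0.65, and with Alas2 and Slc4a1 it was -0.04.

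The other genes of the red cell programme were read from fixed lists, and in KO_alpha3 against 8 wild types 0 genes of the erythroid lists passed edgeR or DESeq2. Heme synthesis genes had estimates below 0 in 12 of 12, with a median of -0.36. Slc25a37, the mitochondrial iron importer, averaged 63.8 CPM in KO_alpha3 and 138 CPM in wild types, and Fech, the last enzyme of heme synthesis, 55.6 and 93.8 CPM. Red cell membrane genes were below 0 in 15 of 15, with a median of -0.82, and Ank1, the ankyrin that anchors band 3, averaged 57 CPM in KO_alpha3 and 89.5 CPM in wild types. Add2, an adducin also made in neurons, averaged 275 and 300 CPM in the same groups.

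Erythroid transcription factors were below 0 in 12 of 13, with a median of -0.87. Ldb1 and Bcl11a, the 2 most abundant, are widely made in neurons too and averaged 290 and 96.8 CPM in KO_alpha3, against 272 and 97.4 CPM in wild types. Other erythroid genes were below 0 in 16 of 19, with a median of -1.34, among them Tfrc, the transferrin receptor, at a mean of 93.5 CPM in KO_alpha3 and 102 CPM in wild types, and Bnip3l, which clears mitochondria, at 145 and 149 CPM. At an unadjusted p under 0.05 these 4 lists had 1 of 12, 2 of 15, 1 of 13 and 2 of 19 genes in edgeR, beside 10.8% of all genes. In DESeq2 they had 1, 4, 3 and 5 such genes, beside 12.3% of all genes. Without WT_alpha3 79 and WT_beta 399 their edgeR medians were 0.03, 0.01, -0.01 and 0.04, beside 0.00 over all genes.

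In KO_beta against 8 wild types the same 4 lists had medians of -0.33, -0.51, -0.86 and -0.77, with 0 genes called by edgeR or DESeq2 and 0, 0, 1 and 0 at an unadjusted p under 0.05 in edgeR, beside 2.23% of all genes. DESeq2 had 0, 0, 1 and 1 such genes, beside 3.16% of all genes. Without the same 2 libraries the medians were 0.07, 0.11, 0.08 and 0.28. In WT_beta against WT_alpha3 they were -0.06, -0.14, -0.13 and -0.19, with 0 genes called by either tool and 0 at an unadjusted p under 0.05 in edgeR or DESeq2. Without the 2 libraries they were -0.07, -0.42, -0.20 and -0.33. Beside these medians, the 3 embryonic globins had estimates of -1.97 to -3.30 with all libraries and of -1.54 to -2.97 without the 2. Of the other globins, 6 of 10 had a row. Cygb, cytoglobin, averaged 5.7, 7.79 and 8.42 CPM in KO_alpha3, KO_beta and wild types. Mb, myoglobin, averaged 0.462, 0.916 and 1.47 CPM in the same order. Of the other globins tested, 0 of 4 were called. In KO_alpha3, 2 had an unadjusted p under 0.05 in edgeR with and without the 2 libraries, beside 10.8% of all genes with all libraries.

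Markers of other cells moved with some of these values. The 14 hepatocyte genes summed to 17.5 to 134 CPM in KO_alpha3, 84.5 to 641 CPM in KO_beta, 25.2 to 5312 CPM in WT_beta and 81.3 to 459 CPM in WT_alpha3. The top value was WT_beta 399, where Afp was at 2116 CPM and Alb at 1740 CPM, and the runner-up was KO_beta 398, whose sum was 641 CPM. These are also the libraries that, with WT_alpha3 79, were highest in Alas2 and Slc4a1. In WT_alpha3 79 Afp was at 141 CPM and Alb at 142 CPM, while the red cell genes Gata1 and Klf1 were at 30.2 and 52.8 CPM, close to 31.1 and 52.5 CPM in WT_beta 399. The other 14 libraries had 0.833 to 7.15 CPM of Gata1. These 2 genes were chosen after their values were seen. In KO_alpha3 against 8 wild types, 0 of 14 hepatocyte genes were called by edgeR or DESeq2. The list had a median of -3.29 with 13 genes at an unadjusted p under 0.05 in edgeR, beside 10.8% of all genes. In DESeq2 its median was -1.45 with 6 such genes, beside 12.3% of all genes. Without WT_alpha3 79 and WT_beta 399 its edgeR median was -1.11 with 0 such genes. In WT_beta against WT_alpha3 its median was 2.67 with 8 such genes in edgeR, beside 5.27% of all genes. In DESeq2 it was 2.69 with 12 such genes, beside 5.79% of all genes. Without the 2 libraries the edgeR median was 1.18 with 0 such genes. The part of liver tissue in the member levels was not tested.

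Macrophage genes summed to 69.5 to 110 CPM in KO_alpha3, 89.8 to 120 CPM in KO_beta and 96.1 to 223 CPM in wild types, with medians of -0.47 in KO_alpha3 and -0.22 in KO_beta and 0 genes called by edgeR or DESeq2 (7 and 0 of 11 at an unadjusted p under 0.05 in edgeR, beside 10.8% and 2.23% of all genes). DESeq2 had 6 and 2 such genes, beside 12.3% and 3.16% of all genes. Without WT_alpha3 79 and WT_beta 399 the edgeR medians were -0.31 and -0.04, with 3 and 0 such genes. Csf1r, the receptor that macrophages depend on, averaged 20.6, 26.4 and 28.6 CPM, and the mannose receptor Mrc1 16.6, 20 and 23.4 CPM, in the same 3 sets. Platelet genes summed to 57.8 to 72 CPM in KO_alpha3, 61.4 to 64 CPM in KO_beta and 56 to 131 CPM in wild types. Their medians were -0.77 in KO_alpha3 and -1.25 in KO_beta, with 0 of 10 called by edgeR or DESeq2. In KO_beta, 3 had an unadjusted p under 0.05 in edgeR and 6 in DESeq2, beside 2.23% and 3.16% of all genes. Without the same 2 wild types the medians were 0.09 and -0.31, with 0 such genes in edgeR. Endothelial genes, which mark the vessels that carry blood, summed to 391 to 485 CPM in KO_alpha3, 380 to 491 CPM in KO_beta and 346 to 528 CPM in wild types, and Cdh5 averaged 133, 134 and 133 CPM. The vessel signal thus varied 1.53-fold over libraries that varied 27.5-fold in the members' summed level.

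Genes outside the lists of globins were ranked by how closely they followed the members, as a description over 16 libraries and 13399 genes. The nearest to the summed level of the members was Bpgm, which makes the red cell regulator of oxygen release, at r of 0.98, with 33.5 to 102 CPM. Pdzk1ip1 followed at 0.97, Grap2 at 0.94, Hsd3b6 and Cks1brt at 0.93 and Lmx1a at 0.91, then Pim1 and Trib3 at 0.89 and Hoxa4 and Pkhd1l1 at 0.87. Some of these were near the floor: Lmx1a had 0.0442 to 6.79 CPM with a median of 0.333 CPM, and Cks1brt 0.754 to 2.56 CPM. The genes nearest to the Hbb-bh1 share were Hoxb4 and Mybbp1a at 0.97, Lsm3 at 0.96 and Phf5a and Scly at 0.95. Among those most opposed were Fmo1, Fam19a1, Adamts5 and Lgr6 at -0.97. Hoxb4 had 19.8 to 71.8 CPM over the libraries.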

How the data were processed

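For 16 libraries the authors deposited raw counts, whole numbers of reads for each gene symbol. The submitters' processing notes list HTSeq 0.6.1p1, TopHat2 2.0.10, cutadapt, DESeq2 1.6.3 and bcl2fastq 2.17.1.14 with the build mm10. Neither their roles nor the annotation, read length, strand setting or treatment of reads with several matches is given in the sources used here. The second deposited table holds the same counts times 1 constant per library and was not used. Counts were scaled with TMM factors, and CPM values are counts per 1000000 of the scaled library.

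edgeR 4.0.16 (quasi-likelihood test, filterByExpr, Benjamini-Hochberg over 15641 genes, threshold 0.05) was run in R 4.3.3, and DESeq2 1.42.0 was an alternative. The SE of an edgeR log2 fold change is its size over the root of its F statistic. Knockouts were tested in a 3-group fit with pooled wild types, and wild types and the difference of knockout effects in a 4-group fit. Ratios used log2 of counts plus 0.5, with exact permutation tests over libraries in SciPy 1.17.1. Correlations used 100000 permutations. The planned ratio of Hba-x to Hba-a1 and Hba-a2 could not be formed because both are listed at 0; Hba-x to Hbb-y and to Hbb-bs took its place after the data were seen, which makes 16 ratio tests and 9 relations. Transcripts were read from GENCODE M21 and promoters from RefSeq. Pieces of 50 and 100 bases were compared.

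The fits were tested on simulated data with the same small spread set for every gene. The members vary more, so that test does not tell how small a change could be found in them. Members and lists were chosen with earlier results of these data known. From each list the 2 genes with the highest mean CPM were named, and like genes were the 10 nearest to the members and 5 at each end for the ratio, among genes with a mean of at least 1 CPM outside clone names, predicted genes and Y-linked genes. A few genes that these rules name are not reported here. Depth of 19682595 to 26873361 counts per library makes 3 reads, the limit that a count of 0 allows, equal to 0.112 to 0.155 CPM, for counting error only.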

Additional observations from a re-analysis of the deposited data

Results flagged for a closer look

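Within groups of 4 libraries, a library was marked when its gap to the nearest other was above the 95% critical value of Dixon's test, which chance gives in about 1 in 20 groups. Slc4a1 was marked in WT_alpha3 79, at 784 CPM against 73.8 to 162 CPM in the other 3, with a gap of 0.876 of the range. It was also marked in WT_beta 399, at 623 CPM against 35.7 to 74.5 CPM in the other 3, with a gap of 0.934. Both Slc4a1 gaps were taken on CPM, and on a log2 scale they are a smaller part of the range. The log2 ratio of Hba-x to Hbb-bs was marked in KO_beta 411, at 6.52 against 5.91 to 5.95 in the other 3, with a gap of 0.93; it rests on 14 Hbb-bs reads, with an exact 95% Poisson interval of 7.65 to 23.5.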

How the results depend on the processing

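No paired analysis was possible because the groups share no replicate number. The count of members called was 0 in each of 92 alternative counts, one for each setting and comparison it could be run in. Of 552 alternative fold changes of members, none of which passed the test, 28 changed sign. In KO_alpha3 against 8 wild types, Hba-x had 0.58 with DESeq2 and, with Y-linked reads as a covariate, Hba-x had 0.61 and Hbb-bh1 0.78. Without WT_alpha3 79 and WT_beta 399, Hba-x had 0.51, Hbb-bh1 0.76 and Slc4a1 0.10 there, and in KO_beta Alas2 had 0.60, Hbb-bs 0.89, Hbb-y 0.30 and Slc4a1 0.45. Against WT_beta alone, KO_beta had 0.20 for Alas2, 1.01 for Hba-x, 0.39 for Hbb-bh1, 0.56 for Hbb-bs and 0.89 for Hbb-y, and log2 ratios of 0.10 (Hba-x to Hbb-y) and 0.21 (Hba-x to Hbb-bs). An offset of 10 reads moved embryonic to adult β in WT_beta against WT_alpha3 to -0.02. The cause was not tested.

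Leaving out each library in turn gave 0 members called throughout. Over all genes, edgeR's calls in KO_alpha3 against 8 wild types were 124 without KO_alpha3 50 and 1 without any other library; in WT_beta against WT_alpha3 they were 2 to 7, the most without KO_alpha3 81, and in the difference of knockout effects 1 to 3, the most without KO_alpha3 50. Fold changes ran from -1.55 to 0.54 for Hba-x and from -2.12 to 0.72 for Hbb-bh1 in KO_alpha3 against 8 wild types, highest without WT_alpha3 79. In KO_beta they ran from -0.93 to 0.19 for Alas2, -0.83 to 0.48 for Hbb-bs and -1.02 to 0.26 for Hbb-y. In WT_beta against WT_alpha3 they ran from -1.75 to 0.05 for Alas2 and -2.32 to 0.95 for Slc4a1, lowest without WT_beta 399 and highest without WT_alpha3 79, and the difference of knockout effects from -2.68 to 0.60 for Slc4a1. Ratio differences ran from -0.07 to 0.96 for Hbb-bh1 to Hbb-y in KO_alpha3. For embryonic to adult β they ran from -0.13 to 0.56 in KO_beta and -0.55 to 1.06 in WT_beta against WT_alpha3. Hba-x to Hbb-y in WT_beta against WT_alpha3 ran from -1.0 to -0.70, where 4 against 3 cannot pass the threshold. Hba-x to Hbb-bs ran from -0.44 to 0.27 in KO_beta and -1.52 to 0.14 in WT_beta against WT_alpha3.

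Between lines, Hba-x to Hbb-y kept its direction in libraries without Y-linked reads, at 1.13, past no threshold with 2 against 4. The full separation of the lines fixed that direction. Correlations fell short in part. Hbb-bh1 share with Hba-x to Hbb-bs had 0.65 in the 8 wild types and 0.15 below the gap, and with Alas2 and Slc4a1 0.46 without the 2 farthest libraries, 0.86 in the 8 wild types and 0.52 below the gap. Hba-x to Hbb-bs had, with Alas2 and Slc4a1, 0.20 without the 2 farthest libraries and 0.29 in wild types; with cell cycle 0.64 in wild types and 0.37 below the gap; and below the gap 0.47 with neural progenitor and -0.55 with late sensory neuron genes. Counts of genes called over all genes by DESeq2 were 128, 1, 32 and 6 in the 4 comparisons, against 1, 0, 3 and 1 by edgeR. The planned ratio to Hba-a1 and Hba-a2, and Hbb-bt alone, gave no value, since both denominators are listed at 0.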
